A study of Mus musculus with 4 samples.

Results

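Aass, Gdpd3, Npy and Prm1 were 4 genes whose signal differed by more than 10-fold between Nrf2 knockout and wild-type spleen. They were chosen by that measured difference, so their own knockout and wild-type values are given as a description, with no test. Each is measured by 1 probe set, a set of short probes for 1 transcript, so the group holds 4 of 12422 probe sets and 4 of the 8251 genes with a single symbol. Total RNA came from spleens of female mice aged 5 months. Of the 4 arrays, 2 held RNA of nrf2 -/- animals (knockout) and 2 held RNA of nrf2 +/+ littermates (wild type). The mice descend from a cross of knockout parents on a mixed C57B6/129SVJ background with wild-type parents on a mixed C57B6/SJL background, and heterozygous offspring were then interbred. A knockout and a wild-type spleen can therefore differ in strain-derived stretches of chromosome as well as in Nrf2, and whether an array holds 1 mouse or a pool is not stated. The spread between arrays may thus be technical, and 2 arrays a group limit the precision of every value. In whole tissue, fewer cells of a type and less RNA per cell cannot be told apart.

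Nrf2, encoded by Nfe2l2, is a transcription factor that binds the antioxidant response element in DNA and turns on detoxification and antioxidant genes. None of the 4 genes is a textbook member of that programme. Aass encodes the mitochondrial enzyme that starts lysine breakdown and is known mainly from liver and kidney. Gdpd3 encodes a membrane enzyme of the glycerophosphodiester phosphodiesterase family that releases lysophosphatidic acid from lysophospholipids. Npy encodes neuropeptide Y, a peptide of sympathetic nerves, which reach the spleen along its arteries, and it is also known from megakaryocytes of rats and mice. Prm1 encodes protamine 1, the arginine-rich protein that replaces histones in sperm DNA, and its known site of expression is the spermatid. The genes that lie next to each of the 4 are described as well, because a stretch of chromosome inherited from another strain carries neighbouring genes along.

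Since the missing factor acts on DNA next to its target genes, the sequence just before each gene is shown. The 250 bases before the transcript start, from RefSeq on GRCm38.p6, are chr6:23132987-23133236 on the minus strand for Aass, chr7:126766164-126766413 on the plus strand for Gdpd3, chr6:49822460-49822709 on the plus strand for Npy and chr16:10796824-10797073 on the minus strand for Prm1. Each is written 5′ to 3′ in the direction of the gene, and capitals mark the motifs searched.
Aass: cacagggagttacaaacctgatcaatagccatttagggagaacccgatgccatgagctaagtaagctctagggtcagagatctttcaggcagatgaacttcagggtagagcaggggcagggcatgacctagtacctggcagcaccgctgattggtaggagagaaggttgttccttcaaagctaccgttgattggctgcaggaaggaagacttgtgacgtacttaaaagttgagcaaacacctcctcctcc
Gdpd3: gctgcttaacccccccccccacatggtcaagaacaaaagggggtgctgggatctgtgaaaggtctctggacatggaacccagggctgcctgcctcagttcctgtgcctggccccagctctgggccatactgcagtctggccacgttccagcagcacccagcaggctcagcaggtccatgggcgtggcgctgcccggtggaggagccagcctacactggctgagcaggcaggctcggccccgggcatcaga
Npy: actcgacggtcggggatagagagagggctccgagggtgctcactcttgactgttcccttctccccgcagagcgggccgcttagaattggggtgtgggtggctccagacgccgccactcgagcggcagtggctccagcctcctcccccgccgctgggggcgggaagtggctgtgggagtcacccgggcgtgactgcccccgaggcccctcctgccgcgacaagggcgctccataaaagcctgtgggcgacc
Prm1: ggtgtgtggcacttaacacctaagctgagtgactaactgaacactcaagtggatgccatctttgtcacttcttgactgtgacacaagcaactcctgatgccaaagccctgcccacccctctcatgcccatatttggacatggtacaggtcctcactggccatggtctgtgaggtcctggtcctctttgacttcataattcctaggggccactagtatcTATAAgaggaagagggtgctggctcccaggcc
The core of the antioxidant response element, searched as TGACNNNGC on both strands, was in none of the 4 windows, and 10.2% of 32851 mouse promoter windows of this length held it. The letters TATAA on the gene's own strand were found once, 32 bases before the start of Prm1, and 5255 of the 32851 windows held them. A window without these letters says nothing of elements farther away. The windows of Npy and Gdpd3 were rich in G and C, at 69.2% and 65.2% of bases, while that of Prm1 held 51.6%, against a median of 52.4% over all windows.

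The values are intensities on a linear scale, and values below 185, the 25th percentile of all values, were raised to that floor before log2 was taken. The targeted gene went the way of its labels. Nfe2l2 read 202.0 and 178.6 in the knockout arrays against 3537 and 6321 in the wild-type arrays, although the labels do not say which part of the gene was deleted. Of 11 probe sets for 6 red pulp macrophage genes, which mark spleen, 8 were bright enough to test, with a median log2 difference of 0.61. That of the factor Spic read 16190 and 16623 in knockout and 14314 and 12660 in wild-type spleen. Others were uneven, and 1 of Adgre1 read 2350 and 2964 in knockout arrays, against 123.5 and 3644 for wild type. The 11 summed to 103651 and 116504 in knockout arrays, against 67357 and 119295 for wild type (replicates 1 and 2). Wild-type replicate 1 stood apart from the other arrays, with Pearson's r across tested probe sets between 0.849 and 0.851, and for 15.4% of probe sets it fell over 2-fold beyond the range spanned by the other 3. Differences of over 10-fold were found for 11 of 7453 tested probe sets (0.148%), 9 lower (0.121%) and 2 higher (0.0268%) in knockout spleen, and the 2 higher ones were Npy and Prm1. Of the 11, 4 probe sets match several genes each and are not named, and the others belong to Aass, Gdpd3, Npy, Prm1, Nfe2l2, the trypsinogen gene Prss2 and the lysosomal protease gene Ctsc. Of those 11, Gdpd3 had the smallest difference, 11.5-fold, and just outside lay Pnliprp1, a pancreatic lipase relative, at least 9.10-fold lower. Both groups were separate, with no overlap of arrays, for each of the 4 genes, as for 26.4% of all tested probe sets.

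**Figure D1:**
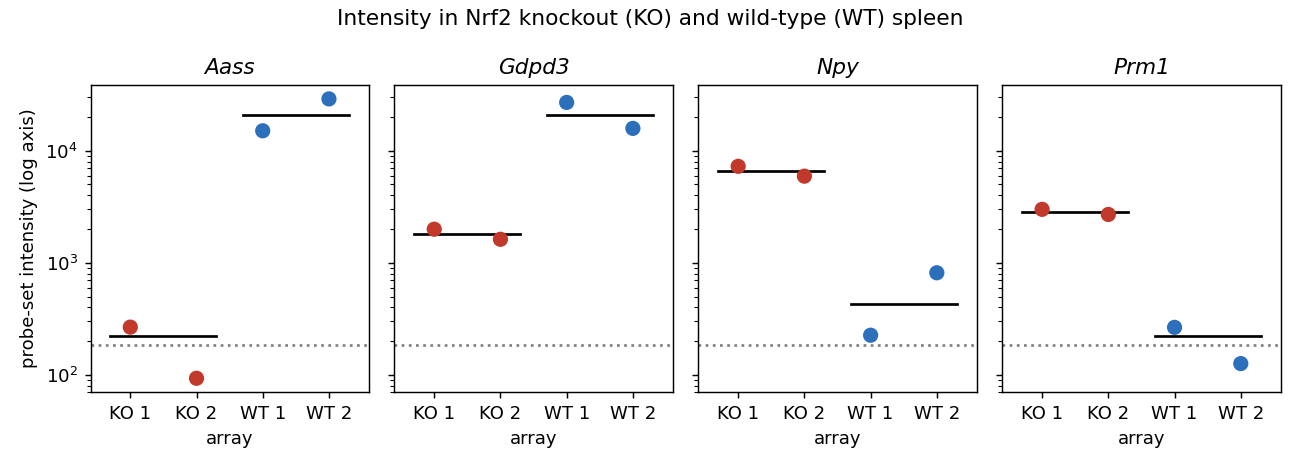
Probe-set intensity of Aass, Gdpd3, Npy and Prm1 on a log axis in each knockout (KO) and wild-type (WT) array, 1 point an array. Black lines are group means on the log2 scale with the floor applied, and the dotted line is the floor of 185. No knockout point overlaps a wild-type point for any of the 4 genes, and Gdpd3 lies well above the floor in both genotypes.

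The description "all or none" fitted the 4 genes unequally. Aass in knockout spleen and Prm1 in wild-type spleen each had 1 array below the floor and 1 just above it. Npy in wild-type spleen was above the floor in both arrays, and Gdpd3 in knockout spleen read 1994 and 1621, far above the floor. Only Gdpd3 would have passed the filter on dim probe sets with its lower group alone, so the other 3 were tested because their higher group was bright. The files hold no detection calls, so a low reading is not shown to be an absent transcript.

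Aass had the widest gap of the 4 genes, and 2 probe sets that match several genes differed more. Its probe set, 103389_at, read 266.6 and 93.2 in knockout arrays against 15073 and 29022 in wild-type arrays. Every wild-type array was bright and every knockout array dim, and even the closest pair, knockout replicate 1 and wild-type replicate 1, lay 56.5-fold apart. On the log2 scale the difference was -6.56 (SE 0.47, n = 2 per group), or 94.1-fold lower, with knockout replicate 2 set to the floor, and it was -5.45 with the floor at the 40th percentile. Between the wild-type arrays Aass differed by 1.93-fold, with 31.6% of tested probe sets differing more between those arrays.

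The lysine breakdown genes bright enough to test differed by between -0.46 and 0.47. Of 10 other listed genes on the array, 6 were bright enough to test on 8 probe sets, of which 6 measured higher and 2 lower. By limma, which fits all probe sets together, 0 passed an adjusted p of 0.05 and 0 an unadjusted p of 0.05, against 0.0537% and 1.74% of all tested probe sets. Their median difference was 0.06, against 0.04 over all tested probe sets. Aldh7a1, whose enzyme acts after that of Aass on the same lysine carbon chain, read 1554 and 1518 in knockout arrays, against 1348 and 1696 for wild type on 1 probe set (log2 0.02, SE 0.40) and -0.07 on another. Gcdh, the glutaryl-CoA dehydrogenase gene further down the pathway, gave -0.46 and 0.37 on its 2 probe sets. Echs1, an enoyl-CoA hydratase gene, differed by 0.47 (SE 0.47), Dlst, a 2-oxoglutarate dehydrogenase subunit gene, by 0.21 and Dld, the dehydrogenase subunit that several such complexes share, by 0.10. The groups overlapped for each of these probe sets. Among those too dim to test, Ehhadh read 70.1 and 92.4 in knockout arrays, against 284.9 and 226.3 for wild type, and Pipox, the pipecolic acid oxidase gene, read 196.6 and 277.9 against 547.8 and 422.6. Crym and another probe set of Aldh7a1, both dim too, were higher in both knockout arrays. These dim genes were named after their values were seen.

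The neighbourhood of Aass on chromosome 6 was thinly covered. Within 5 Mb of its start, 10 other genes were on the array, and 3 of them, on 4 probe sets, were bright enough to test. Fam3c, a secreted protein gene 0.766 Mb away and the nearest tested gene, read 2860 and 2434 in knockout arrays, against 1141 and 2306 for wild type on 1 probe set (log2 0.70, SE 0.46) and differed by 0.45 on another, the opposite direction to Aass. Ndufa5, a gene of respiratory complex I 1.45 Mb away on the other side, differed by -0.54 (SE 0.59), with 20707 and 24397 in knockout arrays, against 58259 and 18338 for wild type, so the groups overlapped. Lsm8, an RNA-binding protein gene 4.22 Mb away, differed by 0.05, and St7, Arf5 and Pax4, all just over 5 Mb away, differed by -0.14, -0.52 and -0.45. Ptprz1, the nearest gene on the array at 0.197 Mb, was too dim to test on its 3 probe sets. None of the 4 probe sets within 5 Mb passed an adjusted or an unadjusted p of 0.05 by limma, against 0.0537% and 1.74% of all. None of the 4 had separate groups with over 2-fold difference, against 3.53% of all tested probe sets.

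Markers of liver, a tissue where Aass is strong, measured lower in the same direction. Of 8 listed liver genes 7 were measured, on 8 probe sets. Of these, 7 were lower in both knockout arrays than in both wild-type arrays and 1 overlapped. Only that of Alb was bright enough to test, and the other 7 were dim, several of them below the floor. Among all tested probe sets, which leave out dim ones, 26.4% had separate groups in either direction. The summed intensity of the liver markers was 1552 and 1653 in knockout arrays, against 2772 and 8078 for wild type (replicates 1 and 2). The albumin gene Alb read 487.7 and 360.0 in knockout arrays, against 840.2 and 4894 for wild type, and the apolipoprotein gene Apoa1 read 62.5 and 111.2 against 151.7 and 900.1. Wild-type replicate 2 was the higher of the wild-type arrays for Aass, by 1.93-fold, and for the liver sum, by 2.91-fold. In wild-type replicate 1, where the liver sum exceeded the higher knockout array by 1.68-fold, Aass was 56.5-fold above the higher knockout array. The part of liver RNA in the Aass difference was not tested.

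Gdpd3 was lower in knockout spleen but was measured well above the floor. Its probe set, 104217_at, read 1994 and 1621 in knockout arrays against 26988 and 15836 in wild-type arrays. The groups were 7.94-fold apart at their closest, between knockout replicate 1 and wild-type replicate 2. The log2 difference was -3.52 (SE 0.44, n = 2 per group), or 11.5-fold lower. Its replicates lay 1.23-fold apart in knockout and 1.70-fold in wild type, where the median probe set differed by 1.23-fold and 1.56-fold.

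Related lipid genes bright enough to test differed by between -0.37 and 1.10. Of 12 other listed genes of lysophospholipid and glycerophosphodiester metabolism on the array, 11 were tested on 14 probe sets. Of these, 6 measured higher and 8 lower, with a median of -0.01. By limma 0 passed an adjusted p of 0.05 and 0 an unadjusted p of 0.05, against 0.0537% and 1.74% of all tested probe sets. Gpcpd1, a family relative that cleaves glycerophosphocholine, read 1846 and 2191 in knockout arrays, against 639.4 and 1378 for wild type (log2 1.10, SE 0.49, adjusted p = 0.992), the opposite direction to Gdpd3. The relative Gdpd5 differed by -0.37, the phospholipase A2 gene Pla2g4a by 0.61, the phosphatidic acid phosphatase gene Plpp1 by 0.51 and 0.12 on its 2 probe sets, and the lysophosphatidic acid receptor gene Lpar1 by 0.42. Of the 14 probe sets, 1 had separate groups with over 2-fold difference, that of Gpcpd1, against 3.53% of all tested probe sets.

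Gdpd3 lies in a gene-dense stretch of chromosome 7 and had the best covered neighbourhood. Its closest tested neighbours, all within 0.1 Mb, straddle it on both sides. Ypel3, a growth-arrest gene 0.0105 Mb away, read 5223 and 6155 in knockout arrays, against 6304 and 7432 for wild type (log2 -0.27, SE 0.39). The T-box factor gene Tbx6, 0.0151 Mb away, differed by -0.34, and Ppp4c, a protein phosphatase subunit gene 0.0195 Mb away, by 1.18 with overlapping groups, since wild-type replicate 1 read 135.9 and the other 3 arrays between 1160 and 1671. On the other side Coro1a, the leukocyte coronin gene, differed by 0.27, Bola2 by -0.52 and the sulfotransferase gene Sult1a1 by -0.96 (SE 0.60), with 558.0 and 222.0 in knockout arrays, against 662.9 and 706.8 for wild type. Within 1 Mb, 42 probe sets of 35 genes were tested, 12 measuring higher and 30 lower, with a median of -0.20. Over all tested probe sets 53.7% measured higher. Within 5 Mb, 81 probe sets of 65 genes were tested, 36 measuring higher and 45 lower, with a median of -0.13. By limma 0 of these 81 had an adjusted p under 0.05 and 2 an unadjusted p under 0.05, against 0.0537% and 1.74% of all.

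Separate groups with over 2-fold difference were found for 4 of these 81 probe sets (4.94%), against 3.53% of all tested probe sets. Of the 4, 2 were higher (2.23% of all) and 2 lower (1.3% of all). The difference largest in size was that of Zg16, a protein of pancreatic zymogen granules, 0.284 Mb from Gdpd3, which read 609.6 and 869.0 in knockout arrays, against 7247 and 1150 for wild type (log2 -1.99, SE 0.78, adjusted p = 0.992). With a replicate block limma's adjusted p of Zg16 was 0.0316, the one neighbour to pass there, although nothing in the labels ties same-numbered samples together. The other lower probe set was 1 of 3 of the mitotic kinase gene Plk1, at -1.16, while its others gave -0.58 and 0.07. Higher were the splicing-associated gene Cd2bp2, at 1.38, and the vesicle transport gene Sec23ip, at 1.08. These last 3 genes were named after their values were seen.

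Markers of the exocrine pancreas, whose tissue lies beside the spleen, also measured lower. The 9 of 14 listed genes that were measured had a summed intensity of 10050 and 12057 in knockout arrays, against 86601 and 22977 for wild type. Of their 10 probe sets 8 were lower in both knockout arrays, where 26.4% of all tested probe sets had separate groups in either direction. Both Gdpd3 and the pancreas sum were highest in wild-type replicate 1, by 1.70-fold and 3.77-fold over wild-type replicate 2, as was Zg16, by 6.30-fold. In wild-type replicate 2, where the pancreas sum lay 1.91-fold above the higher knockout array, Gdpd3 lay 7.94-fold above it. Single markers varied widely around that sum. In the same array Prss2 lay 7.79-fold above the higher knockout array, while Clps, at 622.4, lay below both knockout arrays. By limma 0 of the 9 tested pancreas probe sets passed an adjusted p of 0.05 and 7 an unadjusted p of 0.05, against 0.0537% and 1.74% of all tested probe sets. The part of pancreatic RNA in the Gdpd3 difference was not tested.

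Npy was higher in knockout spleen. Its probe set, 103235_at, read 7261 and 5933 in knockout arrays against 225.8 and 814.5 in wild-type arrays. Both knockout arrays were bright and nearly equal, at 1.22-fold apart, while the wild-type arrays lay 3.61-fold apart, a spread exceeded by 5.89% of tested probe sets. The closest knockout and wild-type arrays lay 7.28-fold apart. The log2 difference was 3.94 (SE 0.61, n = 2 per group), or 15.3-fold higher. Leaving out wild-type replicate 1 gave 3.01 and leaving out wild-type replicate 2 gave 4.86, so the size of the difference depends on which wild-type array is used.

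The rest of the neuropeptide Y system was mostly dim. Of 11 other listed genes on the array, 4 were tested on 5 probe sets, with a median of -0.11 and a range from -0.29 to 0.29. By limma 0 of these 5 passed an adjusted and 0 an unadjusted p of 0.05, against 0.0537% and 1.74% of all tested probe sets. The related peptide gene Ppy differed by 0.18, the peptidase gene Dpp4, whose enzyme trims neuropeptide Y, by -0.15, and the receptor gene Npy2r by -0.11. Cpe, encoding a carboxypeptidase that processes peptide hormones, gave 0.29 and -0.29 on its 2 probe sets. Markers of neurons and chromaffin cells, the usual sources of the peptide, were mostly too dim to test. Of 11 such genes measured on 16 probe sets, 13 probe sets overlapped, where 26.4% of all tested probe sets had separate groups. By limma 0 of the 5 tested passed an adjusted and 0 an unadjusted p of 0.05, against 0.0537% and 1.74% of all. The summed intensity was 5690 and 7339 in knockout arrays, against 8645 and 5720 for wild type. Tyrosine hydroxylase, Th, the first enzyme of noradrenaline synthesis in these nerves, read 554.7 and 373.2 in knockout arrays, against 789.3 and 390.8 for wild type.

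Around Npy on chromosome 6, 31 probe sets of 24 genes were tested within 5 Mb, 18 measuring higher and 13 lower, with a median of 0.07. By limma 0 passed an adjusted p of 0.05 and 1 an unadjusted p of 0.05, against 0.0537% and 1.74% of all tested probe sets. Gsdme, the nearest gene on the array at 0.385 Mb, was too dim to test, with values mostly below the floor. Both its probe sets were higher in both knockout arrays, as Npy was. They read 127.6 and 235.3 in knockout arrays, against 40.1 and 52.5 for wild type, and 183.9 and 136.9 against 25.3 and 71.0. Cycs, the cytochrome c gene 0.740 Mb away and the nearest tested gene, read 2365 and 2726 in knockout arrays. Its wild-type arrays read 2343 and 2491 (log2 0.07, SE 0.38). Hnrnpa2b1, an RNA-binding protein gene, differed by 0.68 and 0.40 on its 2 probe sets, and Snx10, an endosomal sorting gene, by 0.60. On the other side the nearest tested genes Aoc1, Tmem176a and Tmem176b differed by -0.14, -0.05 and -0.20. Separate groups with over 2-fold difference were found for 2 of the 31 probe sets (6.45%), against 3.53% of all tested probe sets. The first was 1 probe set of the homeobox gene Hoxa4 at -1.36, 2.37 Mb away. The other was 1 of the ubiquitin ligase gene Znrf2 at 1.03, 4.99 Mb away. Both genes were named after their values were seen. Probe sets of each gene disagreed. Hoxa4 had another, too dim to test, that read 984.0 and 656.2 in knockout arrays, against 308.0 and 225.9 for wild type, the opposite direction. Znrf2 gave 0.95, -0.14 and -0.02 on its other 3 probe sets.

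Aass and Npy share chromosome 6 and lie 26.8 Mb apart, with opposite directions. Between them 51 probe sets of 44 genes were tested, with a median difference of -0.04. By limma 0 of the 51 passed an adjusted p of 0.05, against 0.0537% of all tested probe sets. Of these 51, 3 (5.88%) had separate groups and over 2-fold difference, all lower in knockout spleen. They belonged to the trypsinogen gene Prss2, which lies 8.30 Mb from Npy, to Ephb6 and to 2210010C04Rik. Another tested probe set of Ephb6 differed by 0.09 with overlapping groups, while another of 2210010C04Rik, too dim to test, was lower in both knockout arrays. Over the whole of chromosome 6, 20 of 381 tested probe sets (5.25%) met the same criterion, against 3.53% of all tested probe sets.

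Prm1 was also higher in knockout spleen. Its probe set, 99589_f_at, read 3000.5 and 2700.0 in knockout arrays against 265.3 and 126.0 in wild-type arrays. The knockout arrays lay 1.11-fold apart, and the closest pair of opposite genotypes 10.2-fold apart. The log2 difference was 3.68 (SE 0.46, n = 2 per group), or 12.8-fold higher, with wild-type replicate 2 set to the floor, and it was 2.57 with the floor at the 40th percentile. The letter f in the probe set's name marks probes that may also bind transcripts of related sequence, and no other Prm1 probe set was analysed here, so the reading cannot be assigned to Prm1 alone.

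Other sperm genes, the closest relatives included, were mostly dim in both genotypes. Of 29 other listed spermatid and sperm chromatin genes, measured on 38 probe sets, 19 probe sets lay below the floor in all 4 arrays and 8, of 7 genes, were bright enough to test. Those 8 had a median of 0.00 and a range from -0.26 to 0.91. By limma 0 of the 8 passed an adjusted and 0 an unadjusted p of 0.05, against 0.0537% and 1.74% of all tested probe sets. The highest was Tbpl1, a TATA-binding protein relative needed for spermatid development in mice, at 0.91 (SE 0.63), whose groups overlapped. Clgn, a testis chaperone gene, differed by -0.25, the sperm tail gene Odf1 by -0.26 and the sperm glycolysis gene Gapdhs by 0.28. Tnp1, a transition protein gene whose product precedes protamines on sperm DNA, read 1760 and 1844 in knockout arrays, against 2093 and 1558 for wild type on 1 probe set, and below the floor in every array on another.

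The nearest neighbours of Prm1 on chromosome 16, in the protamine gene cluster, were too dim to test, so their values are given without a comparison. Prm2, the other main protamine gene, lies 4.96 kb from Prm1 and read 17.5 and 38.0 in knockout arrays, against 207.2 and 27.5 for wild type on 1 probe set, and 9.8 and 13.2 against 112.8 and 6.9 on the other. Prm3, 5.82 kb away, read 216.6 and 183.7 in knockout arrays, against 257.2 and 111.4 for wild type on 1 of its 2 probe sets, and Tnp2, 8.40 kb away, read 193.0 and 232.0 against 261.9 and 227.6. Socs1, the cytokine signalling inhibitor gene 12.5 kb away, was bright enough to test and read 774.5 and 1023 in knockout arrays, against 585.8 and 1379 for wild type (log2 -0.01, SE 0.54).

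Beyond the cluster the immune genes Clec16a and Ciita differed by 0.97 (SE 0.42, adjusted p = 0.992) and 0.00, and on the other side Litaf, Rsl1d1 and Gspt1 differed by 0.31, 0.15 and 0.65, with Rsl1d1 at -0.14 on its other probe set. Within 5 Mb of Prm1, 26 probe sets of 24 genes were tested, 14 measuring higher and 12 lower, with a median of 0.01 and a range from -0.67 to 0.97. By limma 0 passed an adjusted p of 0.05 and 0 an unadjusted p of 0.05, against 0.0537% and 1.74% of all tested probe sets. Separate groups with over 2-fold difference were found for 0 of the 26, against 3.53% of all.

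**Figure D2:**
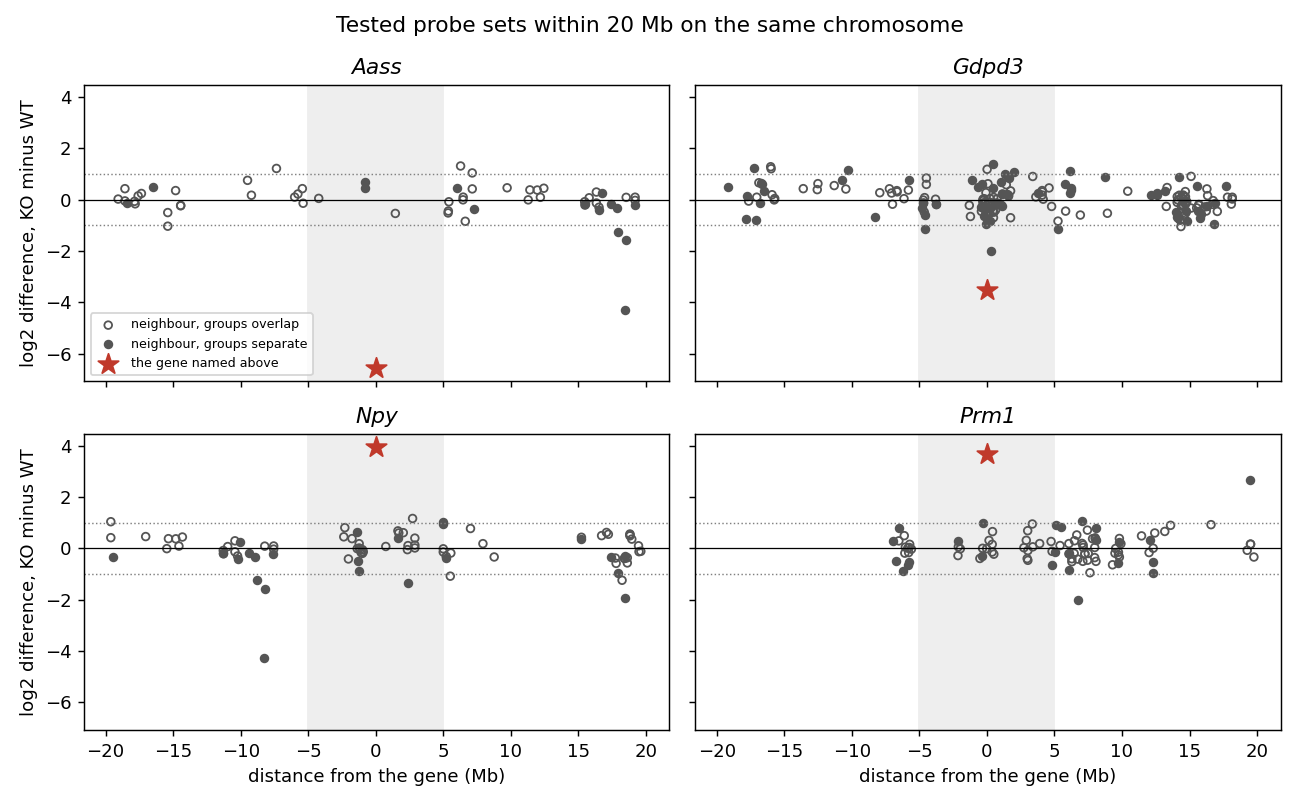
Log2 difference, knockout (KO) minus wild type (WT), of each tested probe set within 20 Mb of Aass, Gdpd3, Npy and Prm1 against its distance in Mb, with the gene itself as a star. Filled points have separate groups, open points overlap, grey shading marks 5 Mb, and dotted lines mark 2-fold. Within the shaded 5 Mb neighbours lie between -1.99 and 1.38. The stars lie at -6.56, -3.52, 3.94 and 3.68, and these 4 genes were chosen for the size of their difference.

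Taking the 4 neighbourhoods as a whole, 142 probe sets of 116 genes within 5 Mb were tested. By limma 0 had an adjusted p under 0.05 (0.0537% of all tested probe sets did), and 3 (2.11%) had an unadjusted p under 0.05, against 1.74% of all. Separate groups with over 2-fold difference were found for 6 (4.23%), against 3.53% of all, which is a share near the background. The median size of the difference regardless of direction was 0.31 in these neighbourhoods and 0.32 over the remaining 7307 tested probe sets. With windows of 1, 2, 10 and 20 Mb the share with separate groups and over 2-fold difference was 3.45%, 3.37%, 5.06% and 4.20%. At 10 Mb, where it was highest, the remaining tested probe sets had 3.42%. These counts concern the neighbours, and sequence variants within the 4 genes were not tested.

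The stretch around Nfe2l2 itself was measured in the same way. Within 5 Mb of it on chromosome 2, 24 probe sets of 21 genes were tested, 14 measuring higher and 10 lower, with a median of 0.35. By limma 0 passed an adjusted and 0 an unadjusted p of 0.05, against 0.0537% and 1.74% of all tested probe sets. Separate groups with over 2-fold difference were found for 0 of the 24, against 3.53% of all.

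**Figure D3:**
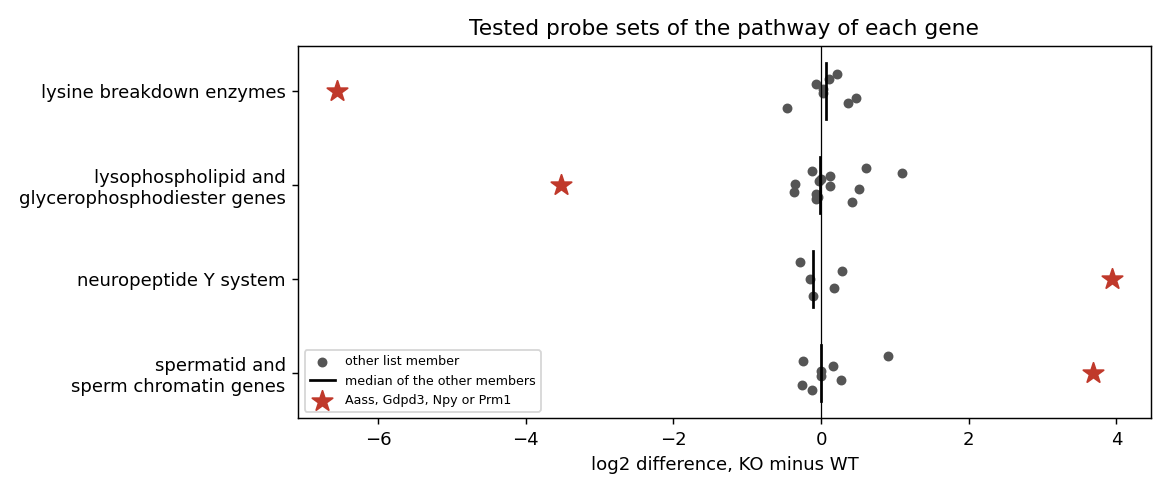
Log2 difference, knockout (KO) minus wild type (WT), of tested probe sets in the pathway list of each gene, with the gene itself as a star, other members as grey points and their median as a black line. The medians of the other members lie between -0.11 and 0.06. The stars lie at -6.56, -3.52, 3.94 and 3.68, and these 4 genes were chosen for the size of their difference.

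Over the 4 pathway lists, 28 genes other than the 4 themselves were tested on 35 probe sets, 18 measuring higher and 17 lower, with a median of 0.00. By limma 0 passed an adjusted p of 0.05 and 0 an unadjusted p of 0.05, against 0.0537% and 1.74% of all tested probe sets. Separate groups with over 2-fold difference were found for 1 (2.86%), against 3.53% of all. The partner farthest from 0 was Gpcpd1 at 1.10. The 4 genes were chosen for differences over 10-fold, which 11 of 7453 tested probe sets (0.148%) had. Smaller differences of the partners therefore follow largely from that choice and say little about the pathways.

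Genes with the most similar array profiles were sought among 6702 other probe sets with 1 gene. Likeness was the Euclidean distance between log2 profiles over the 4 arrays, with the floor applied and each centred on its own mean. The difference that chose the 4 genes dominates this measure. Closest to Aass were Nfe2l2 at a distance of 1.97, the lysosomal protease gene Ctsc at 3.12 and Gdpd3 at 3.27. Closest to Gdpd3 were 1 probe set of Ctsc at 0.51, Pnliprp1 at 0.98 and a second probe set of Ctsc at 1.42. For the first Ctsc probe set and Pnliprp1 both knockout arrays were raised to the floor, from 34.6 and 124.4 and from 58.0 and 60.3. Gdpd3 lay above the floor in every array, so these 2 distances depend on where the floor was set. Ctsc also lies on chromosome 7, 38.5 Mb from Gdpd3. Of the 123 probe sets tested between these 2 genes 0 passed an adjusted p of 0.05 by limma, against 0.0537% of all. Separate groups with over 2-fold difference were found for 5 of them (4.07%), against 3.53% of all tested probe sets.

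Closest to Npy were Prm1 at 1.70, the linker histone gene H1f2 at 1.95 and the formin gene Fmnl1 at 2.02. For H1f2 and Fmnl1 wild-type replicate 1 was the low array, with 102.8 and 120.4, while wild-type replicate 2 read 1735 and 1644, not far below the knockout arrays. Closest to Prm1 were 1 of 2 probe sets of the platelet glycoprotein gene Gp5 at 1.12 and the P-selectin gene Selp at 1.40. The chitinase-like gene Chil3 followed at 1.56. Gp5 shares chromosome 16 with Prm1 but lies 19.5 Mb away. Of 72 probe sets tested between them 2 (2.78%) had separate groups with over 2-fold difference, against 3.53% of all.

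Markers of megakaryocytes and platelets and of neutrophils were set beside Npy and Prm1. The 4 megakaryocyte and platelet genes measured, on 5 probe sets, had a summed intensity of 7535 and 7440 in knockout arrays, against 5634 and 2951 for wild type. Of the 5, 3 were higher in both knockout arrays and 2 overlapped, where 26.4% of all tested probe sets had separate groups in either direction. Of the 3 tested, 2 were higher with separate groups and over 2-fold difference, against 2.23% of all. These were 1 probe set of Gp5 at 2.65 and that of Selp at 2.30, while Gp9 gave 0.18. The other Gp5 probe set, too dim to test, overlapped, with 398.6 and 81.5 in knockout arrays, against 301.2 and 290.4 for wild type. By limma 0 of the 3 tested probe sets passed an adjusted p of 0.05 and 2 an unadjusted p of 0.05, against 0.0537% and 1.74% of all. The defining marker Pf4 was dim, at 308.4 and 271.4 in knockout arrays, against 115.1 and 153.8 for wild type. The 9 neutrophil genes summed to 482083 and 547179 in knockout arrays, against 694251 and 169080 for wild type, so the sums overlapped, yet all 10 neutrophil probe sets tested measured higher, against 53.7% of all, and 5 were higher with separate groups and over 2-fold difference, against 2.23% of all. By limma 0 of them passed an adjusted p of 0.05 and 3 an unadjusted p of 0.05, against 0.0537% and 1.74% of all. Npy was lowest in wild-type replicate 1, while both marker sums were lowest in wild-type replicate 2, as was Prm1. The part of these cells in the Npy and Prm1 differences was not tested.

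**Figure D4:**
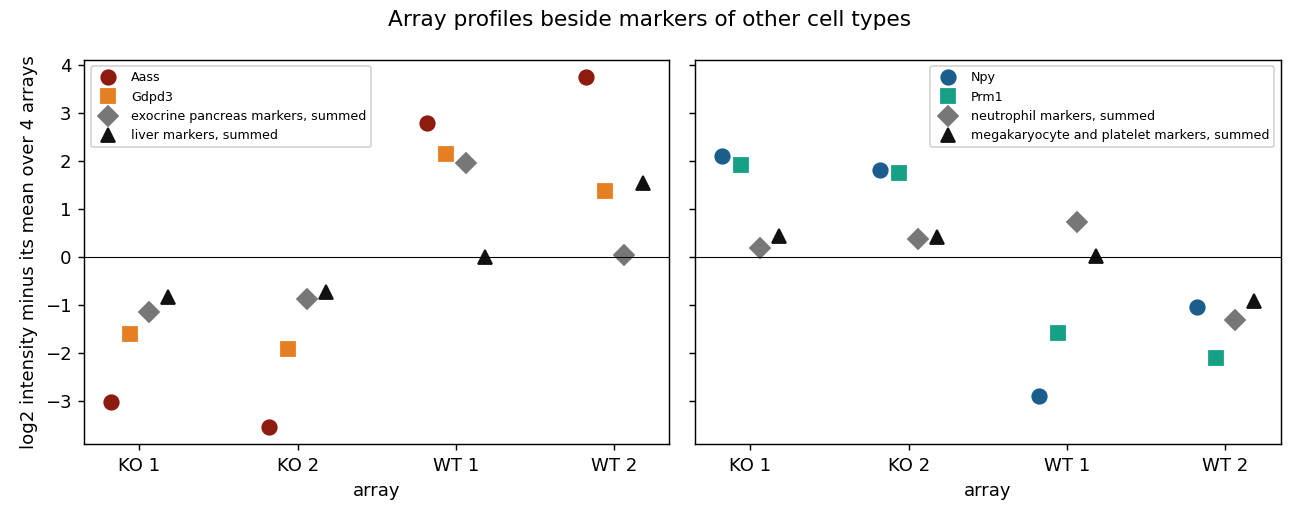
Log2 intensity minus its own mean over the 4 arrays, by array, for Aass and Gdpd3 beside summed exocrine pancreas and liver markers (left), and for Npy and Prm1 beside summed neutrophil and megakaryocyte and platelet markers (right), knockout (KO) before wild type (WT). Points are shifted sideways for legibility. On the left, both genes and both marker sums are higher in each wild-type array than in each knockout array. Aass and liver markers are highest in wild-type replicate 2, Gdpd3 and pancreas markers in wild-type replicate 1.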

How the data were processed

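RNA from 4 spleens or pools (2 knockout, 2 wild type) was measured on 1-colour expression arrays. The deposited values are intensities on a linear scale, as read from the values themselves; which software and scaling the authors applied is not given in the sources used here. Trimmed means lay between 2483 and 2494, so no further scaling was applied. After 66 control probe sets were left out, 12422 remained. Values under the pooled 25th percentile (185) were raised to it, log2 was taken, and the 7453 probe sets with a mean above the 40th percentile were tested with limma 3.58.1 in R 4.3.3 (lmFit and eBayes with an intensity trend, two-sided), with Benjamini-Hochberg adjustment over all of them at 0.05. A fold difference understates that of dim genes.

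Symbols came from the platform annotation, updated by gene identifier: 10833 probe sets had 1 symbol, 396 several and 1193 none, and 10815 of the first matched the GRCm38.p6 gene table, which was used only for neighbours and distances between gene starts. Probe sets with several symbols were left unnamed. Named were all probe sets of the 4 genes and of Nfe2l2, the 3 nearest tested genes on each side, neighbours within 5 Mb that passed or differed over 4-fold with separate groups, up to 4 pathway partners with the smallest p, the 3 most similar profiles, and the probe sets around 10-fold. Others were chosen after their values were seen. Members and lists were chosen with earlier results of these data known. Motifs were searched in RefSeq promoter sequence, and Python 3.11.15 with matplotlib 3.10.9 made the figures. The fit was first tested on simulated data. Alternatives covered scaling, floor, filter, trend, replicate block, each array left out, cross-hybridising probe sets and window size.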

Additional observations from a re-analysis of the deposited data

How the results depend on the processing

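The differences of the 4 genes kept their direction in each alternative that gave a value. With 1 array left out they ranged from -7.03 to -6.08 for Aass, from -3.91 to -3.14 for Gdpd3, for Npy from 3.01 to 4.86, and for Prm1 from 3.42 to 3.94. With the floor at the 40th percentile Aass gave -5.45 and Prm1 2.57, because the dim values were raised further. Prm1 had no value with a 60th percentile filter or without cross-hybridising probe sets, both of which leave it out.

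No pathway partner passed the threshold in any alternative. No neighbour within 5 Mb passed, with 1 array left out (0 to 0) or otherwise, except with the replicate block, where 1 did, and with windows of 1 to 20 Mb 0 passed. The count of neighbours with separate groups and over 2-fold difference, 6 of 142, was 3 of 114 without cross-hybridising probe sets, and 2, 3, 13 and 17 in windows of 1, 2, 10 and 20 Mb, which hold 58, 89, 257 and 405 probe sets. With 1 array left out it ranged from 4 to 42. It was 12 without knockout replicate 1 and 10 without knockout replicate 2, where 7.80% and 7.41% of all tested probe sets met the criterion, and 42 of 146 (28.8%) without wild-type replicate 2, where 24.8% of all did, so these counts moved with the background.

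Over all tested probe sets, 4 passed the adjusted threshold. The count by limma was 0 without the filter (339 with an unadjusted p under 0.05), 2 without cross-hybridising probe sets, 36 with the replicate block, and 3 to 13 with 1 array left out, 10 without knockout replicate 1 and 13 without knockout replicate 2. The cause was not tested. Arrays with the same number had deviations that correlated at 0.04 over 7453 probe sets with only 2 pairs, so the replicate numbers are not shown to pair the samples. With 2 arrays a group, a missing call for a neighbour with a change near 2-fold says little. A gene on the array that was too dim to test, such as Ptprz1 next to Aass, gives no information.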

Other observations

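Within 20 Mb of the 4 genes, 17 of 405 tested probe sets (4.20%) had separate groups with over 2-fold difference, 6 of them within 5 Mb. From those outside 5 Mb, 3 are given here, named after their values were seen. The ATP-gated channel gene P2rx6, 6.77 Mb from Prm1, read 256.6 and 298.5 in knockout arrays, against 1480 and 825.1 for wild type (log2 -1.998, SE 0.53, limma adjusted p = 0.992). The immunoglobulin kappa variable gene Igkv14-111, 18.4 Mb from Npy, read 3090 and 2127 in knockout arrays, against 8075 and 12134 for wild type (log2 -1.95, SE 0.43, limma adjusted p = 0.764) on 1 probe set, while its other 2 probe sets differed by -0.39 and -0.30. Zranb1, a deubiquitinase gene 6.16 Mb from Gdpd3, read 6019 and 6930 in knockout arrays, against 2817 and 3257 for wild type (log2 1.09, SE 0.39, limma adjusted p = 0.992) on 1 probe set and differed by 0.26 on another. Outside these windows but on chromosome 6, as Aass and Npy are, the cyclin D2 gene Ccnd2 read 2740 and 1444 in knockout arrays, against 389.2 and 506.7 for wild type (log2 2.16, SE 0.49, limma adjusted p = 0.816). None of these passed the threshold over all tested probe sets.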
